A study of Homo sapiens with 8 samples.

Results

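The genes that encode 10 integrin subunits of invasive epithelial cells, ITGA2, ITGA3, ITGA5, ITGA6, ITGAV, ITGB1, ITGB3, ITGB4, ITGB5 and ITGB6, were examined for DAXX, DNMT1 and histone H3 ChIP-Seq peaks in prostate cancer cells. The set was given by gene name and not by a threshold on the peaks, and holds 10 of 19811 protein-coding genes. It was chosen with earlier results of these data known, so contrasts with all genes are descriptions only. Every peak inside a gene or within 50 kb of it was taken, and its centre was measured to the nearest transcription start site (TSS) of the gene. Integrins are transmembrane receptors of 1 α and 1 β subunit that bind cells to the extracellular matrix and signal through focal adhesions. Which pairs a carcinoma cell displays decides whether it holds to collagen, laminin, fibronectin or vitronectin, and changes in the set are known to accompany invasion and the colonisation of bone. DAXX, a chaperone of histone H3.3 and a co-repressor, is not known to bind DNA by itself, and DNMT1 copies DNA methylation onto new strands after replication.

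The cells were PC3, a line that came from a bone metastasis of a prostate carcinoma. In the labels the control is wild type PC3, whereas the series text speaks of a line with a control shRNA, so WT here stands for whichever was used. The other cells carried a stable shRNA knockdown of DAXX (K/D) and were grown with puromycin. Each cell type gave 1 library for each of 3 antibodies, which the labels name anti-DAXX, anti-DNMT1 and DMHH3(Lys4), written below as H3(Lys4), and 1 input library that has no list of its own. With 1 library per group and no replicate there was no test between WT and K/D, and intervals given below are exact binomial 95% intervals that cover counting error only.

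The 6 lists were made from 12050101 to 18705056 tags per library. They held 59778 WT DAXX peaks, 42894 K/D DAXX peaks, 2237 WT DNMT1 peaks, 600 K/D DNMT1 peaks, 72100 WT H3(Lys4) regions and 72215 K/D H3(Lys4) regions. The share of tags inside peaks was lower in every K/D library than in its WT counterpart, at 6.83% against 15.8% for DAXX, 0.0663% against 0.263% for DNMT1 and 15.1% against 23.9% for H3(Lys4). A peak missing from a K/D list is therefore one that was not called, and a lost site and weaker enrichment of the whole library cannot be told apart. All peaks carried the same score, so strength was read from the place in the deposited list, which was taken to begin with the strongest peak. Neighbouring peaks at times held successive places in order of position, as 33593, 33594 and 33595 at ITGA2 in K/D. Such peaks may be ties, so only large differences in place can be read as strength. The lists also differ in length, so the same place is not the same percentage of the WT and K/D lists.

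All 10 integrin genes had DAXX peaks in both cell types, as had 85.3% of all protein-coding genes in WT and 81.4% in K/D. In WT cells 99 DAXX peaks lay in their windows, from 3 at ITGAV to 17 at ITGB1, and the median density was 5.61 peaks per 100 kb against 2.53 over all genes. In K/D cells there were 77, with a median of 4.47 per 100 kb against 1.72. Only 5 WT and 1 K/D DNMT1 peaks fell in the windows. H3(Lys4) regions numbered 111 in WT and 125 in K/D, with medians of 5.90 and 7.31 per 100 kb against 3.68 and 3.45 over all genes, of which 90.3% and 90.0% had a region. More WT than K/D DAXX peaks were called at 8 of the 10 genes, which was the case for 59.7% of all genes. The exceptions were ITGA5 with 7 in WT and 10 in K/D, and ITGAV with 3 in each. Integrin genes are longer than most, with a median of 85.0 kb against 27.0 kb, and among the 8135 genes whose windows were as long as those of the integrin genes the WT DAXX median was 2.51 per 100 kb. For DAXX the 50 kb limit fell in gaps between peaks. The closest case was ITGA6 in K/D cells, with a peak 49396 bp outside the gene and the next at 53376 bp. For H3(Lys4), a WT region at ITGB5 lay across the limit, with its centre 50570 bp outside the gene.

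**Figure D1:**
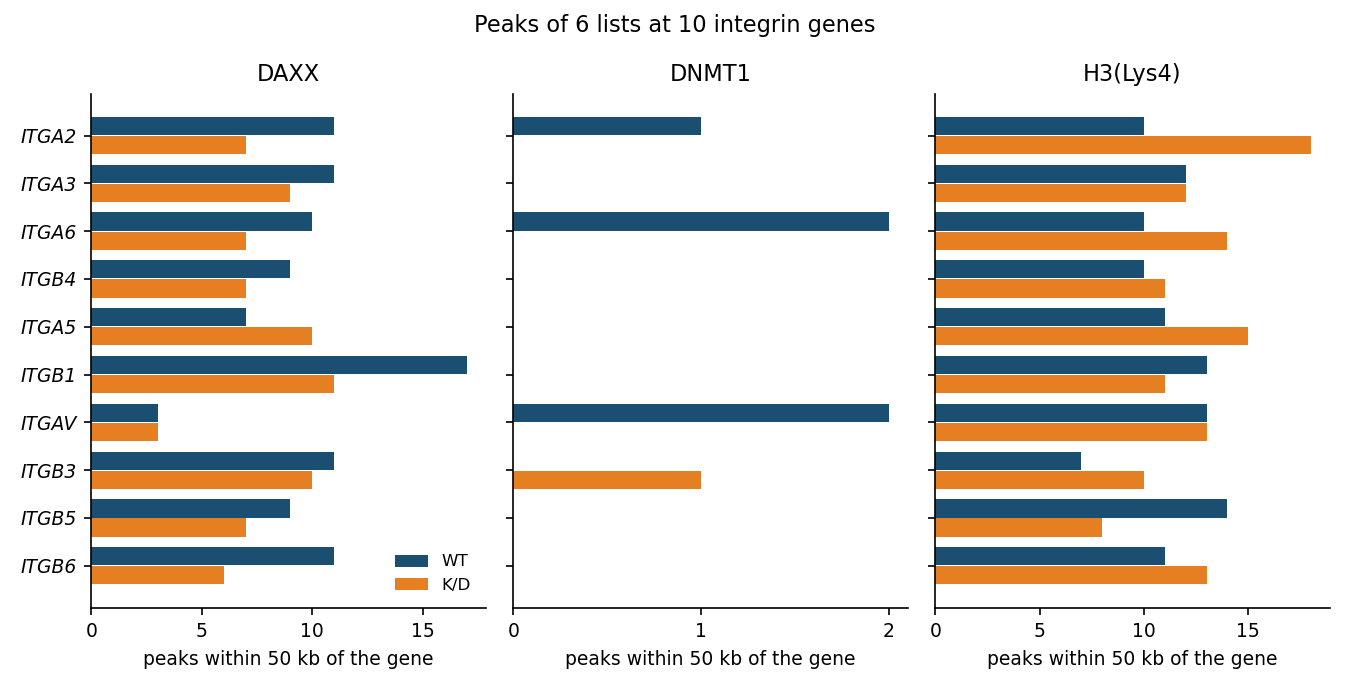
Number of peaks within 50 kb of each integrin gene (horizontal axis) in WT (blue) and K/D (orange) cells, for DAXX, DNMT1 and H3(Lys4), with 1 library per bar. ITGB1 had the most WT DAXX peaks, 17, and ITGAV the fewest, 3. DNMT1 bars reach 2 at most, and ITGA2 shows the widest gap in H3(Lys4), 10 regions in WT and 18 in K/D.

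The DAXX peak that stood first in the WT list at each gene marks the strongest site there, and those of ITGB1, ITGB6, ITGA2 and ITGB3 are printed below as examples of early sites that were also called in K/D cells. Coordinates are those of hg19 and the sequence is the plus strand of GRCh37, 5′ to 3′. Capitals mark matches to 1 of 8 short consensus sequences, listed further on, and they may stand on either strand. Among them TGACTCA is AP-1, the binding sequence of FOS and JUN, TGACCTT is a half-site of nuclear receptors, and TGTGGTT is bound by RUNX factors. A match is a description of the letters and not evidence of a bound factor.
ITGB1 intron, place 178, chr10:33274768-33274940: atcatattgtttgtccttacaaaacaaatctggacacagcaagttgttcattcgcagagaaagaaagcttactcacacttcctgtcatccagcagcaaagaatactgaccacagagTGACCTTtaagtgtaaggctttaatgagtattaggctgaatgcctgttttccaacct
ITGB6 upstream, place 279, chr2:161064697-161064869: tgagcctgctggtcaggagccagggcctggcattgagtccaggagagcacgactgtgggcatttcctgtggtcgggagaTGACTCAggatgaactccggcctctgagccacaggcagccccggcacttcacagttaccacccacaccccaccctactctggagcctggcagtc
ITGA2 intron, place 373, chr5:52333449-52333621: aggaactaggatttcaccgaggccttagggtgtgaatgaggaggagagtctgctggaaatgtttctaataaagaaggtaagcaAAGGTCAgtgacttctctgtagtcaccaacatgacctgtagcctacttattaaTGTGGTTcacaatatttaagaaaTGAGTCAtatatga
ITGB3 upstream, place 671, chr17:45302887-45303059: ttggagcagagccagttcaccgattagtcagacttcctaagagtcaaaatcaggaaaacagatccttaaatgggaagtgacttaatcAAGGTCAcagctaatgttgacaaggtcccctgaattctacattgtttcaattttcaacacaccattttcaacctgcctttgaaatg
None of these 4 examples lay at a promoter. The ITGB6 and ITGA2 peaks held an AP-1 sequence and the ITGB1, ITGA2 and ITGB3 peaks a nuclear receptor half-site.

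ITGA2 (chr5:52285170-52390609, plus strand) encodes the α2 subunit of the collagen receptor α2β1, through which prostate cancer cells are known to attach to bone collagen. It had 11 DAXX peaks in WT and 7 in K/D, and 5 of the 11 were shared, meaning that the WT and K/D peaks had at least 1 bp in common. The peak printed above lay 48353 bp after the TSS and stood at place 373 in WT and 593 in K/D. Intronic peaks at 15745 and 38667 bp were also in the first 10% of both lists. Their WT places were 1575 and 3099 (2.63% and 5.18%) and their K/D places 2474 and 2613 (5.77% and 6.09%). The promoter behaved otherwise. A WT peak centred 132 bp before the TSS, at place 32916, was not called in K/D, while a peak about a kilobase further upstream, at -1301 in WT and -1276 in K/D, was called in both. The promoter peak is shown because it held 3 SP1 sequences (GGGCGGG), in capitals, and no AP-1.
ITGA2 promoter, WT only, chr5:52284964-52285136: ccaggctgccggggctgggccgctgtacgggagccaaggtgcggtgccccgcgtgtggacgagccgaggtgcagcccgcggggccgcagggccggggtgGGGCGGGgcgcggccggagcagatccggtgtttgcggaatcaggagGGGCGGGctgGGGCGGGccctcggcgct
The 6 WT peaks that were not shared stood at places 12295 to 39198. Both K/D peaks without a WT partner were upstream, 3718 and 5437 bp from the TSS. Their places, 33595 and 33594, followed directly on 33593, that of the shared K/D peak at -40704 bp, and may be ties.

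The laminin receptor subunits are encoded by ITGA3, ITGA6 and ITGB4. Integrin α3β1 binds laminins of the basement membrane, and α6β4 anchors epithelial cells to laminin at hemidesmosomes. ITGA3 (chr17:48133332-48167845, plus strand) had 11 DAXX peaks in WT and 9 in K/D, of which 7 were shared, and 5 of its WT peaks were in the first 10% of the list. The earliest was 28356 bp upstream at place 1068 in WT and 981 in K/D, which were 1.79% and 2.29% of the lists. The peak nearest to its TSS, 4908 bp upstream, was shared too, at places 1765 and 2110, and is printed because it held 2 AP-1 sequences 4 bp apart.
ITGA3 upstream, place 1765, chr17:48128480-48128652: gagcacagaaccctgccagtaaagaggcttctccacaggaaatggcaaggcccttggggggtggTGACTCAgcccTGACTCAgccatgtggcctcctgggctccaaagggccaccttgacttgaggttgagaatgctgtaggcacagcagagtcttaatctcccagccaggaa
All 4 unshared WT peaks of ITGA3 stood later than that, between places 7226 and 53873.

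ITGA6 (chr2:173292082-173371187, plus strand) had 10 DAXX peaks in WT and 7 in K/D, 5 of them shared, and none was in the first 10% of either list. Its strongest WT peak, 3078 bp after the nearest TSS, stood at place 9430 (15.8%) in WT and 8004 (18.7%) in K/D. A peak on the TSS, centred 8 bp before it in WT and 38 bp after it in K/D, was called in both, at places 37182 and 14923. ITGB4 (chr17:73717408-73753899, plus strand) had 9 and 7, and 6 were shared. Of its 9 WT peaks 8 were upstream and centred within SAP30BP, and 6 of those were nearer to the TSS of SAP30BP than to that of ITGB4. Its strongest upstream peak stood at place 579 in WT and 272 in K/D. At the ITGB4 promoter the cells differed in the other direction to ITGA2. A peak centred 28 bp after the TSS was called in K/D alone, at place 23491, and the closest WT peak was 14162 bp upstream. DAXX peaks early in the list thus lay in the windows of ITGA3 and ITGB4, and the peaks of ITGA6 stood later. Those early in the ITGB4 window were all within SAP30BP, and the 1 WT peak inside ITGB4 stood at place 41894.

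ITGA5 (chr12:54789045-54813050, minus strand) encodes α5, which with β1 forms the main fibronectin receptor. It was the 1 gene with more DAXX peaks in K/D, 10 against 7. Its own TSS was the nearest for 5 of the 10 and 4 of the 7, and the rest were nearer to GPR84 or ZNF385A. Of the 7 WT peaks 4 were shared. They included a promoter peak centred 35 bp after the TSS in WT and 6 bp before it in K/D. The strongest was 4164 bp upstream at place 12087 (20.2%) in WT and 11838 (27.6%) in K/D. The 6 K/D peaks without a WT partner ran from 2744 bp upstream to 59971 bp downstream of the TSS, and their places were 30160 to 37183 of 42894, so all were late in the list.

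ITGB1 (chr10:33176201-33294720, minus strand) encodes the common partner β1, which pairs with α2, α3, α5, α6 and αV among the subunits here. It had the most DAXX peaks, 17 in WT and 11 in K/D, and 9 were shared. Of the 17, 7 were in the first 10% of the WT list and all of these were shared. They formed a group upstream of the TSS used by the protein-coding transcripts, between 22400 and 74481 bp from it, and part of that stretch is intron of longer annotated transcripts. The first of them, 27646 bp from the TSS, stood at place 178 in WT and 252 in K/D, and the one at 74481 bp at places 243 and 171. Peaks close to the TSS were different. Those centred at -1943, -125 and 3162 bp were called in WT alone, at places 14797, 9777 and 29496, and no K/D peak was nearer than 13448 bp. The early, shared group thus lay away from the TSS used by the protein-coding transcripts. It reached the annotated 5′ end of the gene, however, with the peak at place 2584 centred 47 bp outside that end and the peak at place 921 just inside it. Of the other 5 unshared peaks, those at -34730 and -40035 bp lay among that group, late in the list at places 58211 and 45660, and 3 lay outside it.

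Integrin αV pairs with β1, β3, β5 and β6 to bind vitronectin and other ligands with an RGD sequence, and αVβ6 activates latent TGF-β. ITGAV (chr2:187454737-187545628, plus strand) had only 3 DAXX peaks in each cell type, and none of the WT peaks was shared. Its WT peaks were at -14506, 1079 and 41706 bp from the nearest TSS, at places 20793, 49191 and 37190. The K/D peaks were at -27915, -4851 and -108 bp, at places 40361, 33192 and 33191. Those at 41706 and -4851 bp were in introns, measured from a TSS further inside the gene. Each of the 6 was thus outside the first 10%, and a peak near the TSS was present in both cells but not at the same position. ITGB3 (chr17:45331193-45391109, plus strand) was unlike it, with 11 in WT, 10 in K/D and 9 shared. At this gene the peak printed above, 28220 bp upstream, stood at place 671 in WT and 281 in K/D. The next, 13561 bp upstream, was at 920 and 379, and that in the 3′ part of the gene, at 51806 bp, at 694 and 509. As a percentage of its list, the last of these was at 1.16% in WT and 1.19% in K/D. In WT the first and last were nearer to the TSS of other genes, MYL4 at 16259 bp and EFCAB13 at 18296 bp. ITGB3 had the nearest TSS for 5 of its 11 WT peaks. In WT the closest peak to the ITGB3 TSS was 12306 bp downstream, and in K/D a further peak was called at 4210 bp, place 12525.

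ITGB5 (chr3:124480795-124620265, minus strand) had 9 WT and 7 K/D DAXX peaks, and 5 were shared. Its strongest was 8546 bp after the nearest TSS, at place 1345 in WT and 2137 in K/D. A weaker peak at 735 bp, place 44757, was called in WT alone. ITGB6 (chr2:160956178-161056824, minus strand) had 11 and 6. All 6 shared peaks were upstream, from 5417 to 27170 bp from the TSS, and all 6 K/D peaks of the gene belonged to them. The peak at 7959 bp stood at place 279 in WT and 196 in K/D. The WT peaks inside the gene, at 18911, 43347 and 51585 bp, and those at -41687 and 137523 bp were not called in K/D. ITGB6 therefore kept a compact upstream group and no DAXX peak inside the gene.

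**Figure D2:**
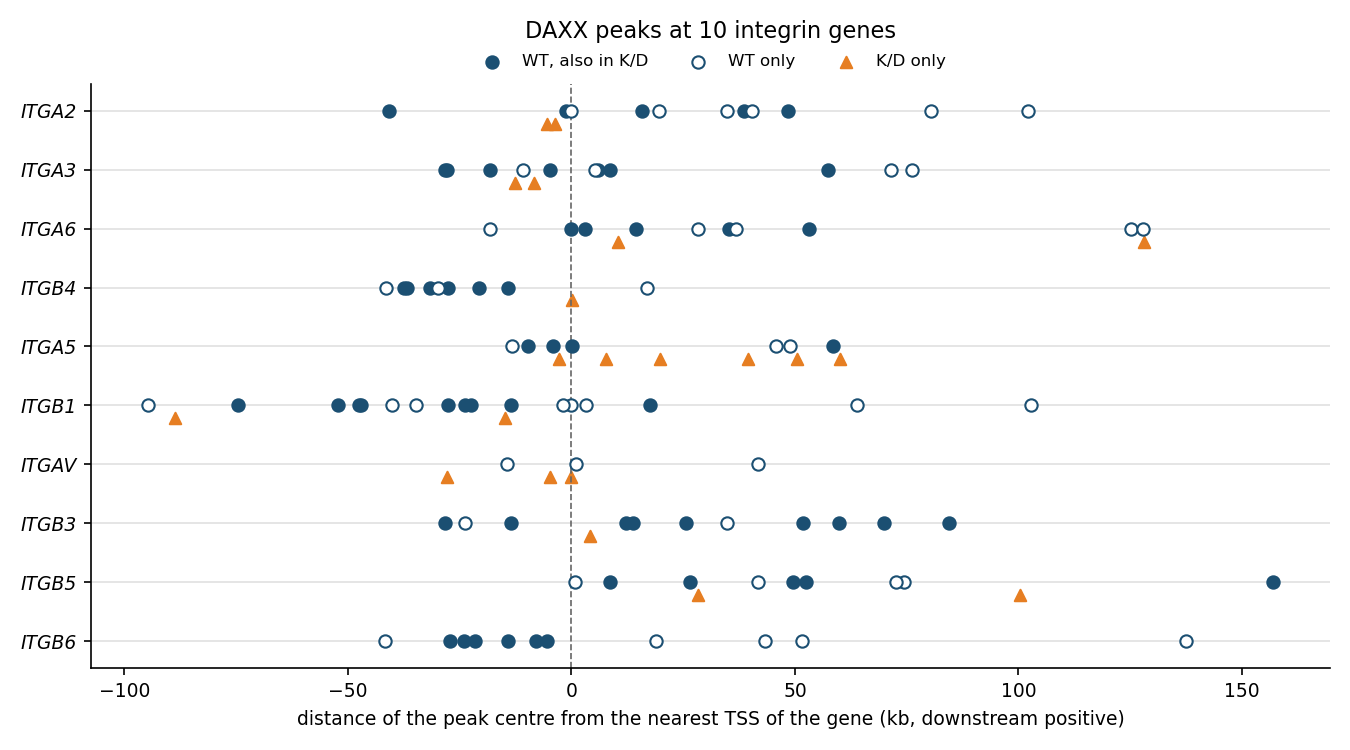
DAXX peaks of the 10 integrin genes by the distance of the peak centre from the nearest TSS of the gene (kb, downstream positive). Filled circles are WT peaks with a K/D partner (56), open circles WT peaks without one (43) and triangles K/D peaks without a WT partner (21). ITGB6 and ITGB1 show filled groups upstream of the TSS, and ITGAV has no filled circle.

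Over the 10 genes, 46 of the 99 WT DAXX peaks were in introns, 34 upstream, 13 downstream, 4 at promoters (1000 bp before to 100 bp after a TSS) and 2 in untranslated exons. For 75 of the 99 the integrin gene had the nearest TSS of any protein-coding gene, as for 59 of the 77 in K/D. The TSS had a WT peak in its 10 kb surroundings at 8 of 10 genes, against 51.2% of all protein-coding genes, and a K/D peak at 9 of 10, against 41.8%. Among the genes with windows as long, the shares were 55.0% and 45.7%. Within 1 kb there were 5 in WT (ITGA2, ITGA5, ITGA6, ITGB1 and ITGB5), against 25.6%, and 4 in K/D (ITGA5, ITGA6, ITGAV and ITGB4), against 19.2%. ITGA5 and ITGA6 were thus the 2 genes with a promoter-proximal peak in both cells. The median distance from TSS to nearest peak was 907 bp in WT and 2743 bp in K/D, against 9220 and 15495 bp over all genes. For genes with windows as long it was 6839 and 12881 bp. A gene with more annotated TSS has more chances of a short distance, and the integrin genes had from 1 (ITGA2) to 14 (ITGB1).

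Sharing between the cells followed the place in the list. In all, 56 of the 99 WT DAXX peaks were shared, or 56.6% (46.2 to 66.5), where 48.4% of the whole WT list was. Peaks of the integrin genes stood earlier than the list at large. There were 27 of 99 in the first 10%, 27.3% (18.8 to 37.1) against 10.0% of the list, and they lay at 7 genes, where 26.3% of all genes had such a peak in their window and 28.5% of the genes with windows as long. ITGA5, ITGA6 and ITGAV had none. All 27 were shared, as were 93.7% of that part of the list. Later than the first 10%, 29 of 72 were shared, 40.3% (28.9 to 52.5) against 43.3%. The share in the list at the places that the 99 peaks held was 60.8%, which is within the interval of the integrin peaks.

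Seen from the K/D side, 56 of 77 peaks were shared, 72.7% (61.4 to 82.3) against 67.4% of the list and 78.6% at the same places. The first 10% held 26 of the 77, all shared, at the same 7 genes, against 22.2% of all genes. In the first 1%, 4 genes had a WT peak (ITGA2, ITGB1, ITGB4 and ITGB6), against 3.34% of all genes, and 4 had a K/D peak (ITGB1, ITGB3, ITGB4 and ITGB6), against 2.63%. The centres of the 56 shared pairs were a median of 19 bp apart, from 2 to 140, and 20 bp in the whole list.

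**Figure D3:**
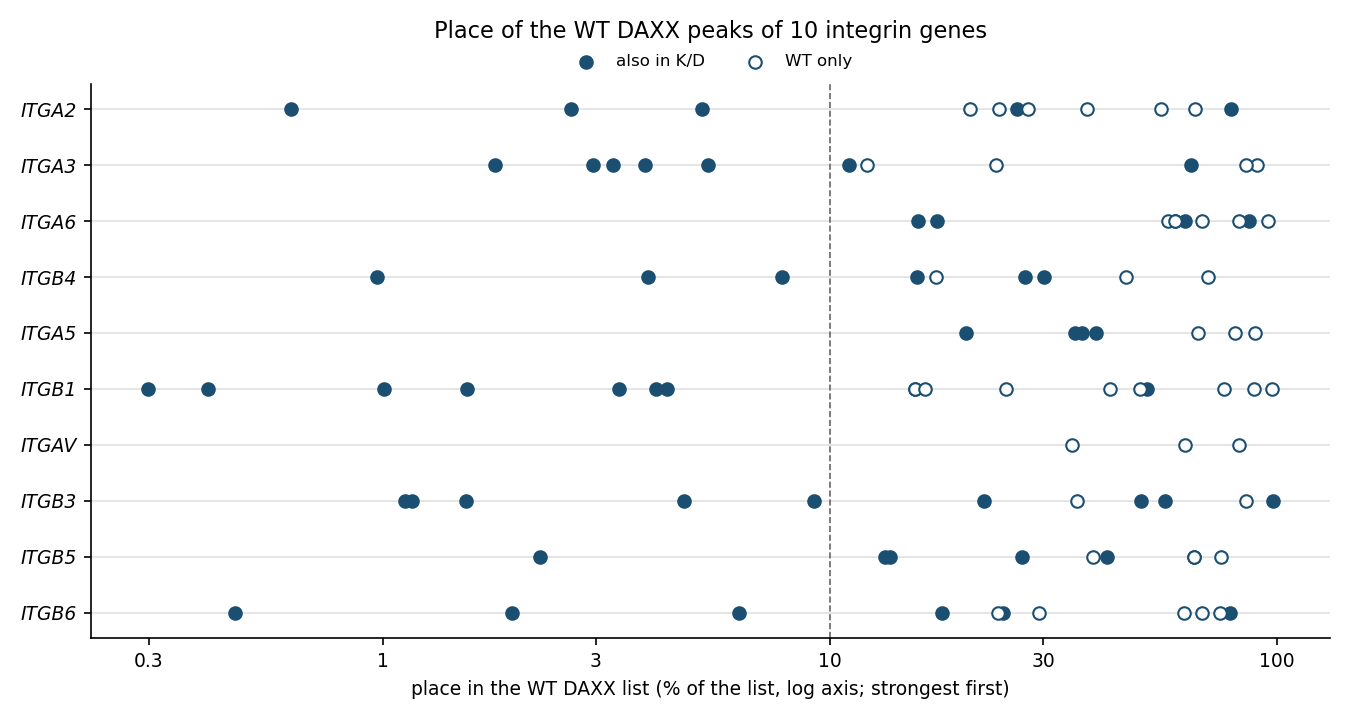
Place of each WT DAXX peak of the integrin genes in the deposited list, as a percentage of the list on a log axis with the strongest at the left, 1 circle per peak. Filled circles have a K/D partner. All 27 circles left of the dashed line at 10% are filled, and the rows of ITGA6, ITGA5 and ITGAV begin to the right of it.

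**Figure D4:**
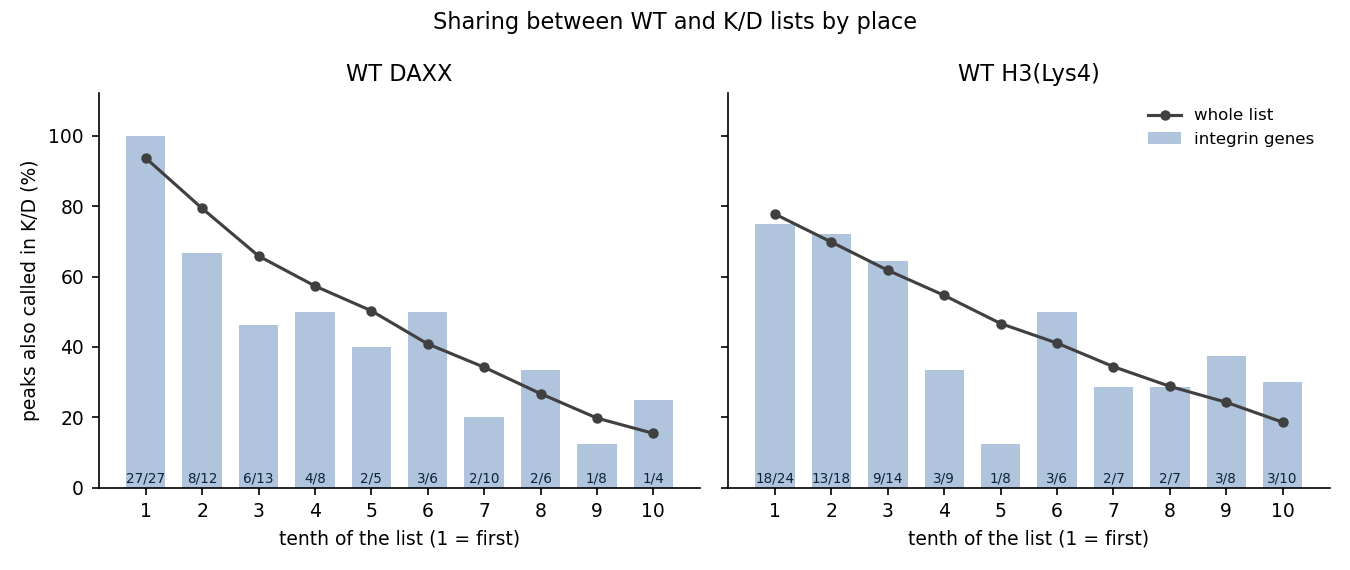
Percentage of WT DAXX peaks (left) and WT H3(Lys4) regions (right) also called in K/D, by successive 10% parts of the WT list. Bars are peaks of the integrin genes, with shared and total numbers printed in them, and the line is the whole list. In the DAXX panel bars run from 27 of 27 in the first 10% to 1 of 4 in the last.

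H3(Lys4) regions overlapped 31 of the 99 WT DAXX peaks, 31.3% (22.4 to 41.4) against 37.4% of the list, and a further 25 had a region within 1 kb. Together these were 56.6%, against 56.9% of the list. In K/D cells 15 of 77 were on a region, 19.5% (11.3 to 30.1) against 28.7%, and 34 had one within 1 kb, 44.2% (32.8 to 55.9) against 24.0%. DAXX peaks at these genes in K/D cells thus lay next to the called regions more often than on them.

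The regions themselves were more numerous and narrower in K/D. Of the 111 WT regions 57 were shared, 51.4% (41.7 to 61.0) against 45.8% of the list. From the other side it was 68 of 125, 54.4% (45.3 to 63.3) against 48.2%. More K/D than WT regions were called at 6 of the 10 genes, which held for 34.0% of all genes, with ITGA2 at 10 and 18 and ITGB5 the reverse at 14 and 8. The length covered in the windows was 158.7 kb in WT and 122.9 kb in K/D, a ratio of 0.775, where the whole lists gave 0.825. It was lower in K/D at 8 genes, with the lowest ratio at ITGA3, 0.574, and higher at ITGAV (1.21) and ITGB3 (1.62). Median width was 909 bp in WT and 658 bp in K/D, against 756 and 644 bp in the lists.

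Within 1 kb of a TSS a WT region was found at 8 genes, all but ITGA6 and ITGB3, against 58.0% of all genes, and a K/D region at 5 (ITGA2, ITGA5, ITGA6, ITGAV and ITGB4), against 55.0%. For genes with windows as long the shares were higher, 66.4% in WT and 63.2% in K/D. The 6920 bp region across the ITGA2 TSS, at place 336 in WT, was met in K/D by 4 separate regions of 501 to 1043 bp. At ITGA5 the WT region of 7228 bp stood at place 379, and the widest K/D region there was 2969 bp. The 5184 bp region of ITGA3 centred 3023 bp after the nearest TSS, place 67 in WT, had no K/D partner. ITGB1 kept a wide region in both cells, with its centre after the nearest TSS. It was 7862 bp wide at 4003 bp in WT, place 40, and 6220 bp wide at 4755 bp in K/D, place 13. ITGA6 and ITGAV went the other way. ITGA6 had a K/D region of 2764 bp centred 1463 bp after the TSS with no WT partner, and ITGAV had a 3655 bp K/D region over the TSS at place 522, where WT regions of 632 and 2744 bp stood at places 22357 and 4530. Places in the H3(Lys4) lists are less certain than in the DAXX lists.

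DNMT1 peaks were few. WT peaks lay at 3 of 10 genes (ITGA2, ITGA6 and ITGAV), where 11.4% of all genes had one, and the K/D peak at 1 (ITGB3), where 4.07% had. None was within 10 kb of the TSS of its gene, as 2.54% of all genes had in WT and 0.888% in K/D. None of the 5 WT peaks was shared with K/D, which with 5 peaks allows a share of up to 52.2%, and 8.59% of the WT list was shared. The K/D peak was not shared either, where 32.3% of the K/D list was. At the places that these peaks held, the shares of the lists were 2.42% in WT and 18.3% in K/D. Of the 5, 4 were on a WT H3(Lys4) region and 1 on a WT DAXX peak. The ITGA2 peak is printed because it held AP-1 in an intronic DNMT1 interval.
ITGA2 DNMT1, WT, chr5:52327727-52327855: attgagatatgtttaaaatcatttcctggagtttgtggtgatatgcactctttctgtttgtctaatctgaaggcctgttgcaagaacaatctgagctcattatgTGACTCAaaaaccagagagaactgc
The first of the ITGA6 DNMT1 peaks stood at place 995 and lay on a DAXX peak at place 40603, both called in WT alone. The second, at chr2:173330369-173330497 and place 1442, was centred 37916 bp after the nearest TSS and likewise called in WT alone. The ITGA2 peak stood at place 881, 42609 bp after the TSS and on neither a DAXX peak nor an H3(Lys4) region.

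ITGAV had a DNMT1 peak 12213 bp upstream (chr2:187442460-187442588, place 766) and another beyond its end (chr2:187559953-187560081, place 2164), which was nearer to FAM171B, 1230 bp from its TSS. The K/D peak was upstream of ITGB3 (chr17:45302934-45303054, place 448), and it coincided with the K/D DAXX peak at place 281 and with a K/D H3(Lys4) region. It lay inside the ITGB3 DAXX sequence printed above, half-site included. The nearest TSS of any gene was that of MYL4, at 16280 bp.

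**Figure D5:**
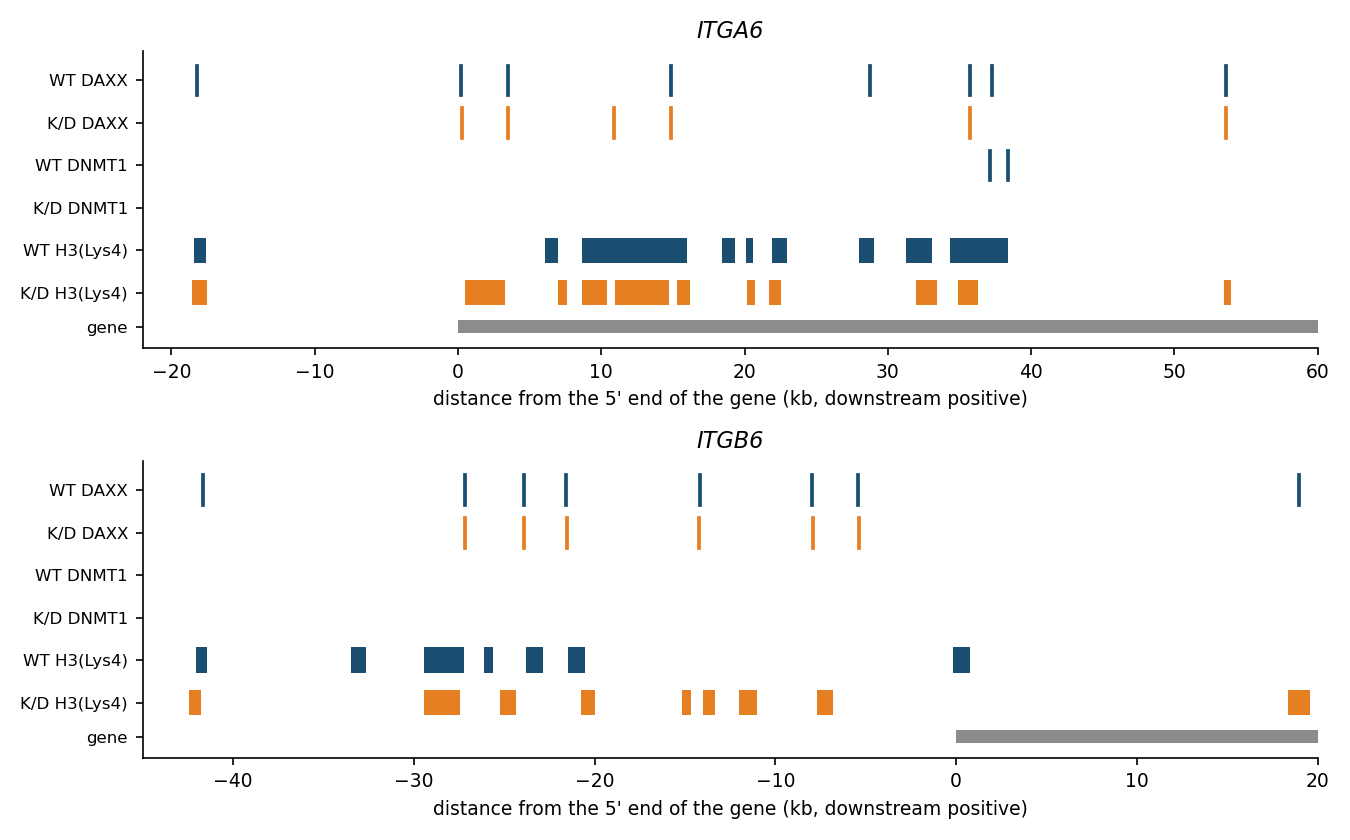
Peaks along ITGA6 and ITGB6 by distance from the 5′ end of the gene (kb, downstream positive). Vertical ticks are the centres of DAXX and DNMT1 peaks, boxes are H3(Lys4) regions drawn to scale, blue for WT and orange for K/D, and the grey bar is the part of the gene in view. At ITGA6 the 2 DNMT1 peaks appear in WT alone, and at ITGB6 the 6 K/D DAXX peaks lie under 6 of the WT peaks.

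The search for the 8 consensus sequences took both strands of the 100 bp on either side of each DAXX peak centre. AP-1 (TGACTCA) was in 31 of the 99 WT peaks, 31.3% (22.4 to 41.4) against 36.1% of the list, and the nuclear receptor half-site (TGACCTT, or the same with C as the last letter) in 23, 23.2% against 21.5%. RUNX (TGTGGTT) was in 12.1% against 8.87%, TEAD (CATTCC) in 13.1% against 15.5%, FOX (TGTTTAC) in 8.08% against 8.16%, SP1 (GGGCGGG) in 5.05% against 5.13%, ETS (CGGAAG) in 4.04% against 4.69% and the E-box (CACGTG) in 3.03% against 2.38%. Each share of the list was inside the interval of the integrin peaks. AP-1 was more frequent in shared peaks, 23 of 56 (41.1%), than in unshared ones, 8 of 43 (18.6%, 8.39 to 33.4), and the list had 40.4% and 32.2%. The intervals of the integrin shares overlap, the former being 28.1 to 55.0. In K/D peaks AP-1 was in 35.1% against 35.3%. Among the earliest and the TSS-nearest WT peaks of the 10 genes, a pair of AP-1 sequences was also found at those of ITGA5 at place 12087, ITGAV at 20793, ITGB3 at 2828 and ITGB6 at 3744.

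Genes that work with these integrins were counted from 4 further lists. Within 10 kb of a TSS, 8 of 16 other integrin subunits had a DAXX peak in WT and 9 in K/D, and of 23 ligand genes 16 and 17 had. For 27 cytoplasmic adhesion partners the numbers were 23 and 21, and for 10 hemidesmosome and tetraspanin genes 9 and 8. Over all genes the shares were 51.2% and 41.8%. No gene of any list had a DNMT1 peak within 10 kb. Of WT peaks within 10 kb of a TSS, and with at most 3 genes taken from a list, the earliest belonged to PXN, the focal adhesion adaptor paxillin (place 173), PLEC, the plectin that ties α6β4 to keratin filaments (233), the kinase SRC (458), the laminin chains LAMA5 (605) and LAMB3 (698) and the adaptor BCAR1 (707). LAMA3, another laminin chain, followed at 1069, and the tetraspanin genes TSPAN4 and CD151 had 1 peak in common at 1157. Among the other subunits the leukocyte β2 gene ITGB2 was first within that distance, at 1569, then ITGA7 at 7030 and ITGA1, the neighbour of ITGA2, at 11301. All of these peaks except that of ITGA1 were shared with K/D.

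The genes whose 6 peak counts were most like those of an integrin gene were sought over all protein-coding genes for the 3 with the most WT DAXX peaks, by the Euclidean distance of log2(count + 1). For ITGB1 it was TBC1D30 on chromosome 12, with 17 WT and 10 K/D DAXX peaks and a distance of 0.171. For ITGA2 it was PDPN, with 12 and 7 DAXX peaks, 1 WT DNMT1 peak and 10 and 16 H3(Lys4) regions, at 0.198, and for ITGA3 it was IRAK2, with 11 and 9 DAXX peaks, at 0.107. ITGB3 and ITGB6 had 11 WT DAXX peaks like ITGA2 and ITGA3, and the latter were taken because they come first in the gene list.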

How the data were processed

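DAXX, DNMT1 and H3(Lys4) ChIP-Seq in PC3 cells, WT or K/D for DAXX, gave 6 peak lists, and the 2 inputs have none here. Samples were grouped by their titles. Per the submitters' processing notes and the file headers, the authors made base calls in CASAVA 1.8.2, aligned to hg19 by Bowtie2 2.1.0 and called peaks per library against input with HOMER 4.6 (4.0-fold over input and over the local 10 kb, p-value limit 0.0001 over input, FDR 0.001 for DAXX and DNMT1). The H3(Lys4) lists lost 0 peaks to the local filter. The score column that the authors deposited holds 1 value, so positions and list order were used.

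The 113 peaks outside chromosomes 1 to 22, X and Y were left out. Genes and all 55870 protein-coding TSS came from GENCODE release 44 lifted to GRCh37, the build of hg19. Shared means at least 1 bp in common. Peaks overlapping 2 windows count for each. Within chromosomes the list order and HOMER's peak numbers had a median Spearman correlation of 0.995 in WT DAXX and 0.991 in K/D DAXX, but 0.944 and 0.848 for DNMT1 and 0.589 and 0.605 for H3(Lys4), so places are less certain in those. Intervals are Clopper-Pearson. Python 3.11.15, pandas 2.3.3, numpy 2.4.6 and scipy 1.17.1 were used, and the overlap code was tested on simulated peaks. The integrin genes and lists were chosen with earlier results of these data known. By rule the text names all 10 genes, at most 3 from every further list, those with the earliest peak within 10 kb of a TSS, and the nearest match in counts outside 1 Mb for 3 genes. No test between groups was made. Alternatives for window, list depth, overlap, TSS and motif window were tried. The sequences of some peaks are not reported here.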

Additional observations from a re-analysis of the deposited data

How the results depend on the processing

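Of 36 alternatives over 13 results, 19 stayed within the bounds set for them and 17 moved the value; 4 of the 36 were chosen after seeing the data (leaving out ITGB1, and the 10 kb window for the first 10% and the first 1%). With 10 kb instead of 50 kb on either side of the genes the windows were smaller and held 61 DAXX peaks in WT, 49 in K/D, 3 DNMT1 peaks in WT, 0 in K/D, 61 H3(Lys4) regions in WT and 66 in K/D. In the first 50% of each list there were 65 DAXX peaks in WT, 3 DNMT1 peaks in WT, 0 in K/D, 73 regions in WT and 75 in K/D, since the lists were shorter, and 69.2% of the WT DAXX peaks were shared. With centres within 100 bp 10.8% of the WT H3(Lys4) regions were shared and 3.03% of the WT DAXX peaks were on a region. With at least 50% of each peak in common these were 26.1% and 0, the last because regions are wider than DAXX peaks. Within 1 kb rather than 10 kb of a TSS, 5 genes had a WT DAXX peak. Without ITGB1, 57.3% of WT DAXX peaks were shared and 24.4% were in the first 10%. With both DAXX lists at equal length 63.4% were shared.

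No paired analysis was possible because each group has 1 library and no test was made. Lists of called peaks limit what can be said: the 5 WT DNMT1 peaks and 1 K/D peak are too few for a share to be narrow, a peak below the calling limits cannot be seen, and the WT and K/D libraries differ in the share of tags in peaks as well as in DAXX.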
